A study of Homo sapiens with 6 samples.

Results

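The TGF-beta and BMP pathway genes described here are 47 genes, found by their symbols among the 20532 genes of the deposited count table. They comprise ligands, latency proteins, receptors, SMADs, nuclear co-repressors, antagonists and feedback targets. Of the 47, 45 passed the filter on low counts and were tested. BMP7 and GREM1, a BMP ligand and a secreted BMP antagonist, did not pass: BMP7 had no read in any library, which allows at most 0.146 to 0.177 CPM (reads scaled to a library of 1e+06; 3 counts of each library's unscaled total, counting error only), and GREM1 had 1 read, in control replicate 3.

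RNA was sequenced from MDA-MB-231 M3 cells, human breast cancer cells that the labels call bone-metastatic, derived from the triple-negative line MDA-MB-231. There were 3 control libraries, described only as untreated or control, and 3 libraries from cells in which PRMT1 was knocked down with a small interfering RNA (siPRMT1). All 6 come from the same line, and neither the siRNA sequence, a control siRNA nor the time of harvest is given in the sources used here. PRMT1 is the main enzyme that places asymmetric dimethyl marks on protein arginines.

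In this pathway, dimeric ligands are secreted, many of them held inactive by latency proteins, and bind type II receptor kinases, which activate type I receptor kinases. Those phosphorylate receptor-regulated SMADs: SMAD2 and SMAD3 for TGF-beta and activin, SMAD1, SMAD5 and SMAD9 for BMPs. These pair with SMAD4 and enter the nucleus, where they switch on, among others, their own inhibitors SMAD6 and SMAD7. TGF-beta is known both for restraining growth of normal epithelium and for promoting invasion and bone metastasis of breast cancer, and PRMT1 is known to methylate the inhibitory SMADs.

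Library totals ran from 16968563 to 20545995 counts. PRMT1 stood between 144 and 149 CPM (with library sizes scaled by TMM) in the control libraries and between 11.9 and 12.0 CPM after knockdown. The share of counts from genes of the mitochondrial genome was 5.001% to 5.09% in the controls and 8.64% to 8.74% after knockdown, and their part in the results was not tested. The line's defining markers VIM, CD44 and AXL were abundant: CD44 fell (log2 fold change -0.72), and VIM and AXL rose (0.38 and 0.36). The summed level of these with ESR1 and PGR, which were at most 0.1499 CPM each, ran from 3420 to 3453 CPM in the controls and from 3639 to 3683 CPM in the siPRMT1 libraries. Of the marker lists of other cell types, 5 leukocyte genes summed to between 203 and 207 CPM and then between 376 and 382 CPM, nearly all of it CD68, a lysosomal gene, with PTPRC at most 0.183 CPM. The 5 fibroblast genes summed to between 10.5 and 12.9 CPM and then between 23.1 and 27.3 CPM, an increase carried by COL1A1 alone, whose mean rose from 7.05 to 22.9 CPM, while LUM and PDGFRB fell (log2 fold changes -0.96 and -0.95) and COL1A2 was at 0.416 and then 0.159 CPM. The 4 endothelial genes summed to between 25.2 and 26.3 CPM and then between 20.3 and 21.0 CPM, and the 3 osteoblast genes to between 0.941 and 1.25 CPM and then between 3.72 and 4.14 CPM. The endothelial fall was mostly KDR, whose mean went from 4.41 to 0.544 CPM, while PECAM1 stood at 21.03 and then 20.03 CPM. BGLAP carried the osteoblast rise, from 1.11 to 3.96 CPM, with IBSP and SP7 at most 0.062 CPM. The part of these markers in the results was not tested.

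The upstream sequences of 4 pathway targets are shown because SMAD6, SMAD7, ID1 and ID3 are textbook targets of SMADs whose transcripts differed in direction or size of change. Sequences are from RefSeq (GRCh38.p14), 5′ to 3′ on the strand of the gene, cut to bases before the transcription start and outside exons annotated in GENCODE 44. The windows are chr15:66701986-66702235 (plus strand) for SMAD6, chr18:48950966-48951215 (minus) for SMAD7, chr20:31605127-31605282 (plus) for ID1 and chr1:23559502-23559751 (minus) for ID3. Capitals mark the 5-base SMAD box CAGAC, the palindromic SMAD motif GTCTAGAC, which does not hold CAGAC, and the GC-rich SMAD motif GGCGCC. Each was searched on both strands, with none of the marked stretches overlapping.
SMAD6: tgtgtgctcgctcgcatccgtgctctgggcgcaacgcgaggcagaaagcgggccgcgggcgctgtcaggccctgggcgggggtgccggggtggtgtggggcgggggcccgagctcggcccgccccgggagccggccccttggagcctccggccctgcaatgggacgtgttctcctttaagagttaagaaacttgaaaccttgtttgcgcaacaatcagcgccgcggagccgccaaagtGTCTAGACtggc
SMAD7: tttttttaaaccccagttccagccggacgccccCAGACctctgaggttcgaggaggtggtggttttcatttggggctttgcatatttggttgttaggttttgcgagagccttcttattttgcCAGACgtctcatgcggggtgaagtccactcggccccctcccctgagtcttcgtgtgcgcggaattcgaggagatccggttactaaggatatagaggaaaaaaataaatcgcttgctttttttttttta
ID1: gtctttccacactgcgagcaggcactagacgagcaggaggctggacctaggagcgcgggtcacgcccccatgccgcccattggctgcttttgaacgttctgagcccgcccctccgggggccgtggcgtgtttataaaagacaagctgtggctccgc
ID3: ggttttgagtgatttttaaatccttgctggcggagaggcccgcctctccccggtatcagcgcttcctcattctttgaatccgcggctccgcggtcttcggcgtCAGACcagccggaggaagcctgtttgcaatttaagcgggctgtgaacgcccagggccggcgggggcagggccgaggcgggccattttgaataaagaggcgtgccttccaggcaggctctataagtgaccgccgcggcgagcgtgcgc

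SMAD6 held GTCTAGAC, beginning 12 bases before its start. SMAD7 held CAGAC beginning 217 and 128 bases before its start, ID3 held it once, 147 bases before, and the ID1 window held none of the 3 motifs. Promoter windows (250 bases before to 50 after the start) were matched by symbol for 42 of the 47 genes, with BMP7, BMP1, SKI, NOG and KLF10 not matched. CAGAC lay in 20 of the 42 windows (47.6%) against 45.3% of all 35116 windows, GGCGCC in 16 (38.1%) against 19.2%, and GTCTAGAC in 1 (2.38%) against 0.202%. The windows were not matched for base composition, GGCGCC holds only G and C, and the 35116 windows outnumber the 20532 genes. These shares are therefore no measure of enrichment. A match is a description of the letters, not of a bound site.

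In the siPRMT1 libraries 9 of 10 receptor and 7 of 8 SMAD transcripts were lower with TMM scaling. After a correction for base composition and length 7 receptors were still lower, and 6 SMADs were lower, SMAD6 among them, while SMAD2 was higher and SMAD9 did not pass. With that correction 40.1% of all genes fell and 40.4% rose. Secreted components split: TGFB1, the protease gene BMP1, LTBP3 and LTBP4 rose, and TGFB2, INHBA and LTBP1 fell, with and without that correction. Among the 45 tested members, 29 fell and 15 rose (edgeR's quasi-likelihood test, Benjamini-Hochberg adjusted p under 0.05 over all 13710 tested genes), and 1, ACVR2A, did not pass. Across all tested genes 45% fell and 44.3% rose, so the count of changed members (44 of 45) is near the background of 89.3%. At least 2-fold lower were 18 members (21% of all genes) and at least 2-fold higher 3 (15.3% of all genes). The members' median log2 fold change (siPRMT1 minus control) was -0.61, against -0.0082 over all tested genes. The 3 control and the 3 siPRMT1 values did not overlap for 44 of the 45, as for 89.1% of all genes. The labels call the replicates biological without saying whether each was its own transfection, so every p-value here reflects the variation among these 6 libraries alone, part of which may be technical. In bulk RNA fewer cells of a kind and less RNA per cell cannot be told apart.

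Across the transcriptome the fold change moved with base composition and transcript length, and the members followed both. The Pearson correlation of the log2 fold change with GC content of the canonical transcript was 0.70 over 45 members (Spearman 0.69) and 0.62 over 13694 genes, and with log2 length it was -0.51 (Spearman -0.58) and -0.49. Genes are not independent replicates, and members share the same 6 libraries. Of 19 members with a GC content under 45%, 17 fell and only TGIF1 rose, where 75.2% of all such genes fell and 15.1% rose. All 15 members with a transcript of 6000 bases or more fell, where 79% of all such genes did. Of 14 members with a GC content of 55% or more 9 rose (64.3%), where 80.1% of all such genes rose. SKI, INHBB, SMAD7, LTBP2 and NOG fell, where 10.5% of all such genes fell. A fit with GC content and length removed as smooth trends is therefore given beside the results as the corrected value. It takes out every change that follows GC content or length, whatever its source. A knockdown effect and a technical bias of that form cannot be told apart here, so neither value is taken as the true one. With it 26 members fell and 16 rose (40.1% and 40.4% of all genes, 80.5% in either direction), 11 members had the other sign, and the median over the members was -0.28. At least 2-fold higher were then 1 member (4.73% of all genes) and at least 2-fold lower 10 (9.62% of all genes). With scaling by library size alone, which moved the median of all genes by -0.317, 32 fell and 11 rose (55.4% and 33.5% of all genes, 88.8% in either direction), 0 of them at least 2-fold higher (6.57% of all genes) and 21 at least 2-fold lower (29% of all genes). Under all 3 fits 22 members fell and 8 rose. No share over all genes was worked out for these counts or for the members with the other sign.

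**Figure D1:**
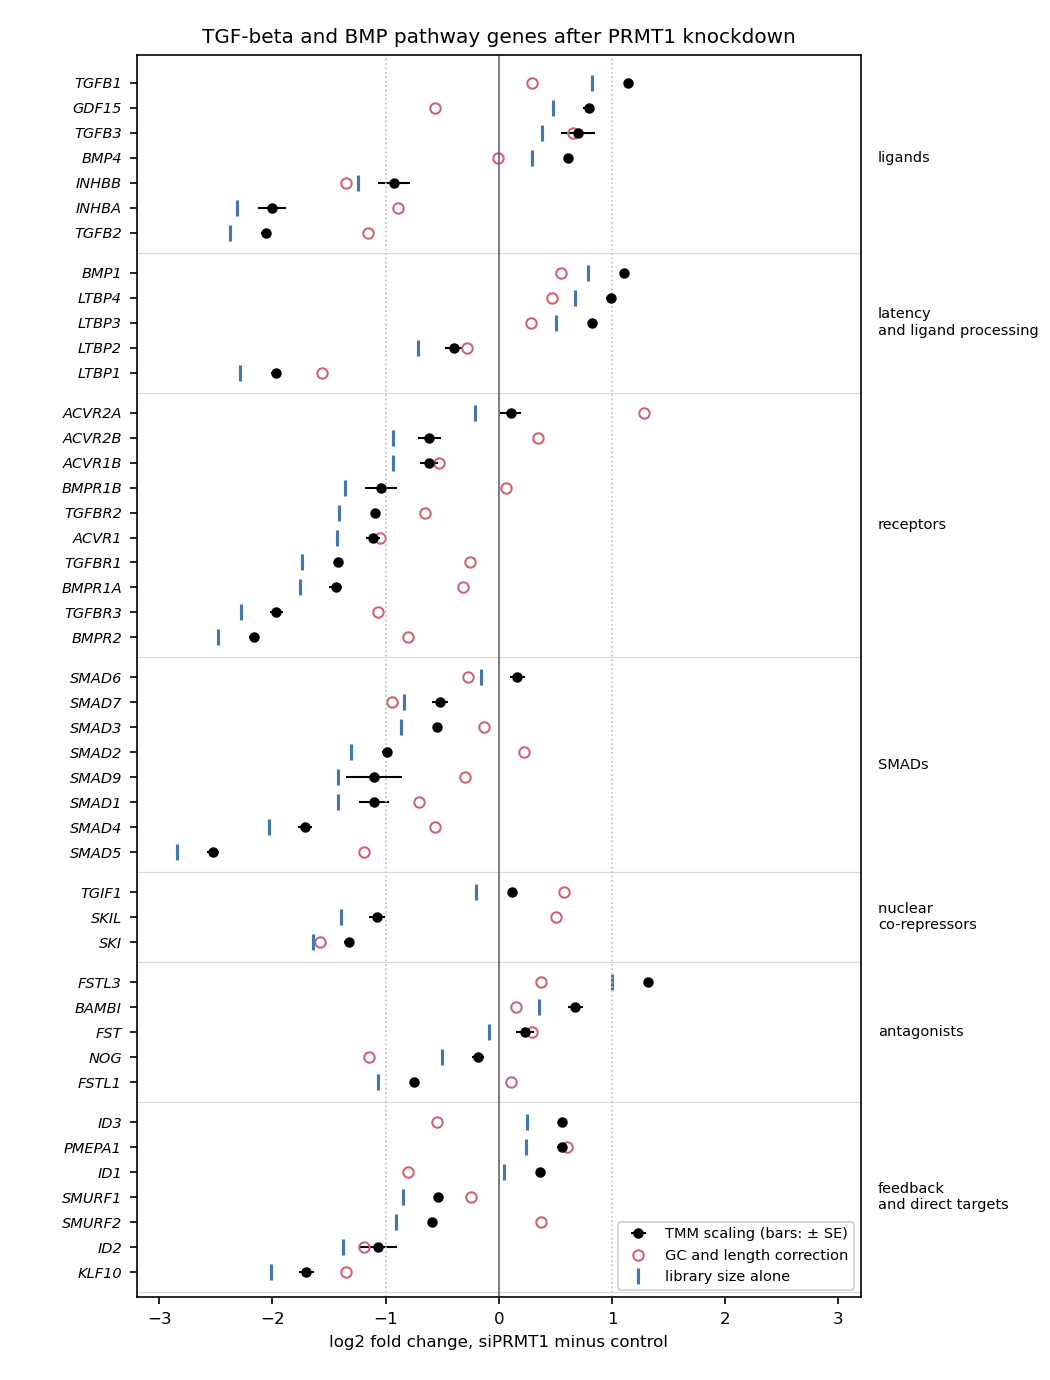
Log2 fold change (siPRMT1 minus control, x axis) of the 45 tested members, ordered by role and size. Black points with bars are the TMM-scaled values ± SE, open red circles the values corrected for GC content and length, and blue ticks the values with library size alone; every receptor but ACVR2A lies left of 0 with TMM scaling, and the open circles of BMPR1B, ACVR2A and ACVR2B lie right of it.

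**Figure D2:**
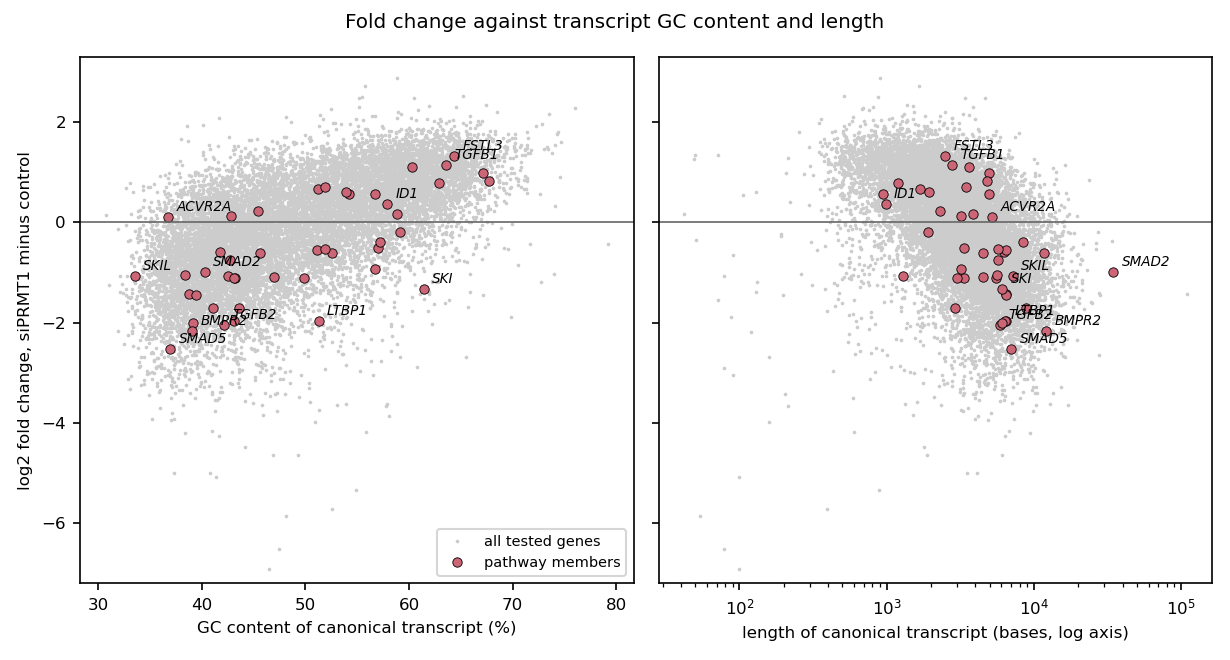
Log2 fold change (y axis) against GC content of the canonical transcript in percent (left) and its length in bases on a log axis (right), for 13694 tested genes (grey) and 45 members (red). Members follow the grey cloud, rising with GC content (Pearson 0.70) and falling with length (-0.51), with SKI and LTBP1 near its lower edge on the left.

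Among the ligands, TGFB1 and TGFB2 moved apart. TGFB1 (ENSG00000105329; hg38, chromosome 19, 41301587 to 41353922, minus strand), the main TGF-beta of most tissues, stood at 86.0, 97.0 and 91.2 CPM in the controls and at 203, 202 and 198 CPM in the siPRMT1 libraries. All 3 knockdown values lay above all 3 controls, a 2.20-fold rise (log2 fold change 1.14, SE 0.0264, edgeR adjusted p = 4.38e-175) that was 0.30 on the log2 scale after correction. TGFB2 (chromosome 1, 218345336 to 218444619, plus strand), the isoform that needs the co-receptor TGFBR3 for efficient binding, stood at 90.7, 89.6 and 86.1 CPM in the controls and at 19.9, 22.4 and 21.6 CPM after knockdown. The groups were far apart, a 4.16-fold fall (log2 fold change -2.06, SE 0.0439, edgeR adjusted p = 1.68e-189), with a corrected value of -1.15. TGFB3, the least abundant isoform, rose from 2.71 ± 0.309 to 4.43 ± 0.398 CPM (SD, n = 3 each; log2 fold change 0.70, corrected 0.65).

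Counted per base of gene model, TGFB1 made up 62.9%, 65.9% and 65.6% of the 3 TGF-beta isoform transcripts in the controls and 93.8%, 93.2% and 93.1% in the siPRMT1 libraries. The isoform mix thus went from about 64.8% ± 1.66 to 93.4% ± 0.370 TGFB1 (SD, n = 3 each), with no overlap between groups, in a quantity that does not depend on the scaling between libraries. An exact two-sided permutation test gave p = 0.1, the smallest that 3 against 3 samples allow. The TGFB1 share carries no correction for GC content or length, and TGFB1 has a higher GC content and a shorter transcript than TGFB2. Corrected log2 fold changes of TGFB1 and TGFB2 (0.30 and -1.15) lay closer together than the uncorrected values (1.14 and -2.06), in the same direction. TGFB1 shares 215 exon bases with HNRNPUL1 on the opposite strand, and no source used here gives the strand setting of the counting, so its reads and those of its neighbour cannot be fully told apart. TGFB2 shares 701 exon bases with TGFB2-AS1 on the opposite strand and 1371 with TGFB2-OT1 on the same strand.

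Both activin subunit genes fell. INHBA, whose product dimerises to activin A, stood at 10.04, 9.15 and 10.96 CPM in the controls and at 2.73, 2.56 and 2.23 CPM after knockdown. The fall was 3.998-fold (log2 fold change -2.00, SE 0.124, edgeR adjusted p = 8.65e-48; corrected -0.89). INHBB, the subunit of activin B, went from 5.36 ± 0.299 to 2.84 ± 0.735 CPM (log2 fold change -0.92), and its corrected value of -1.35 was larger in size. BMP4, a BMP ligand, was the most abundant member per kilobase of gene model, with 69.1 ± 0.212 CPM per kilobase in the controls and 106 ± 0.0672 after knockdown. Its rise of 0.61 on the log2 scale was not kept after correction (-0.0064, adjusted p = 0.770). GDF15, a stress-induced distant relative of the family, rose by 0.79 and was lower after correction (-0.56).

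Latency proteins and the protease that acts on them split in the same way as the TGF-beta isoforms. Latent TGF-beta binding proteins tether the inactive ligand to the matrix. LTBP1 stood at 84.7, 78.5 and 82.2 CPM in the controls and at 19.7, 21.6 and 21.3 CPM after knockdown. This 3.91-fold fall (log2 fold change -1.97, SE 0.0449, edgeR adjusted p = 2.04e-177) was -1.56 after correction. LTBP2, which does not bind latent TGF-beta, fell less (-0.40, corrected -0.28). LTBP3 rose from 37.1 ± 1.36 to 65.8 ± 1.43 CPM (SD, n = 3 each; 0.83, corrected 0.28), and LTBP4 from 35.4 ± 0.338 to 70.0 ± 2.33 CPM (0.99, corrected 0.47). Per base of gene model, LTBP1 was 55.9%, 52.6% and 54.5% of the 4 LTBP transcripts in the controls and 14.7%, 15.6% and 15.6% after knockdown. The predominant LTBP transcript of the controls was thus a minor one in all 3 knockdown libraries. These shares carry no correction for GC content or length. BMP1, a metalloprotease that cleaves procollagens and LTBP1 and is no BMP ligand despite its name, stood at 51.4, 52.5 and 57.2 CPM in the controls and at 113, 114 and 119 CPM after knockdown. It rose 2.15-fold (log2 fold change 1.103, SE 0.0330, edgeR adjusted p = 6.02e-132; corrected 0.55).

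Of the 10 receptors 9 fell, 7 of them at least 2-fold, and none rose. Of all tested genes 45% fell, 21% at least 2-fold, and 44.3% rose. Among all genes with a GC content under 45%, 75.2% fell. TGFBR1, TGFBR3, BMPR1A, BMPR1B, BMPR2 and ACVR2A are of that class. With the correction 7 receptors fell, 2 rose (ACVR2A and ACVR2B) and BMPR1B did not pass (40.1% of all genes fell and 40.4% rose). TGFBR1, the type I TGF-beta receptor, stood at 168, 169.8 and 168 CPM in the controls and at 62.0, 64.2 and 62.0 CPM after knockdown. The values were tight within each group, and the log2 fold change of -1.42 (SE 0.0298, edgeR adjusted p = 5.34e-193) was -0.25 after correction. TGFBR2, the type II receptor, stood at 274, 279 and 272 CPM in the controls and at 129.6, 128 and 127 CPM after knockdown. Its log2 fold change of -1.097 (SE 0.0230) was -0.65 after correction, so the order of the 2 receptors' changes depends on the correction. TGFBR3, also named betaglycan, a co-receptor that presents TGFB2, stood at 42.7, 41.5 and 43.6 CPM and then at 10.9, 11.7 and 9.99 CPM. This was a 3.90-fold fall (log2 fold change -1.96, corrected -1.07).

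The BMP receptors fell as well. BMPR2, the type II BMP receptor, stood at 74.7, 79.7 and 77.0 CPM in the controls and at 15.6, 18.8 and 17.1 CPM after knockdown. It had the largest receptor fall by TMM scaling, 4.48-fold (log2 fold change -2.16, SE 0.0478, edgeR adjusted p = 3.42e-183; corrected -0.80). BMPR1A, a type I BMP receptor, stood at 38.7, 37.9 and 39.3 CPM and then at 14.9, 13.5 and 14.5 CPM (log2 fold change -1.44, corrected -0.32). BMPR1B, the related type I receptor, was scarce, at 5.75, 5.60 and 5.41 CPM and then 2.48, 2.72 and 2.96 CPM. It fell by 1.04 on the log2 scale and did not pass with the correction (0.067, edgeR adjusted p = 0.681). ACVR1, a type I receptor for BMPs also called ALK2, stood at 28.8, 30.3 and 28.8 CPM and then at 13.3, 13.5 and 13.8 CPM. Its log2 fold change was -1.11 with TMM scaling and -1.05 after correction, and -1.43 with library size alone.

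The activin receptors moved least with TMM scaling. ACVR1B, the type I activin receptor, stood at 15.3, 16.5 and 17.9 CPM in the controls and at 10.3, 11.1 and 10.97 CPM after knockdown (log2 fold change -0.62, corrected -0.52). ACVR2A, a type II receptor for activins and BMPs, had 9.997, 8.15 and 7.39 CPM in the controls and 8.62, 10.1 and 8.74 CPM after knockdown. Its groups overlapped, and it was the tested member that did not pass (log2 fold change 0.11, edgeR adjusted p = 0.267); it was lower with library size alone (-0.21) and higher after correction (1.28), and it passed without control replicate 1 (0.24, adjusted p = 0.0352). ACVR2A shares 431 exon bases with ORC4 on the opposite strand. ACVR2B, its paralogue, stood at 10.9, 8.40 and 8.66 CPM and then at 6.45, 7.12 and 4.53 CPM. The fall of 0.61 on the log2 scale became a rise of 0.35 after correction. Per base of gene model, BMPR2 made up 76.4% ± 3.19 of the 3 type II receptor transcripts BMPR2, ACVR2A and ACVR2B in the controls and 43.2% ± 1.95 after knockdown (SD, n = 3 each), with no overlap. This share carries no correction for GC content or length.

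**Figure D3:**
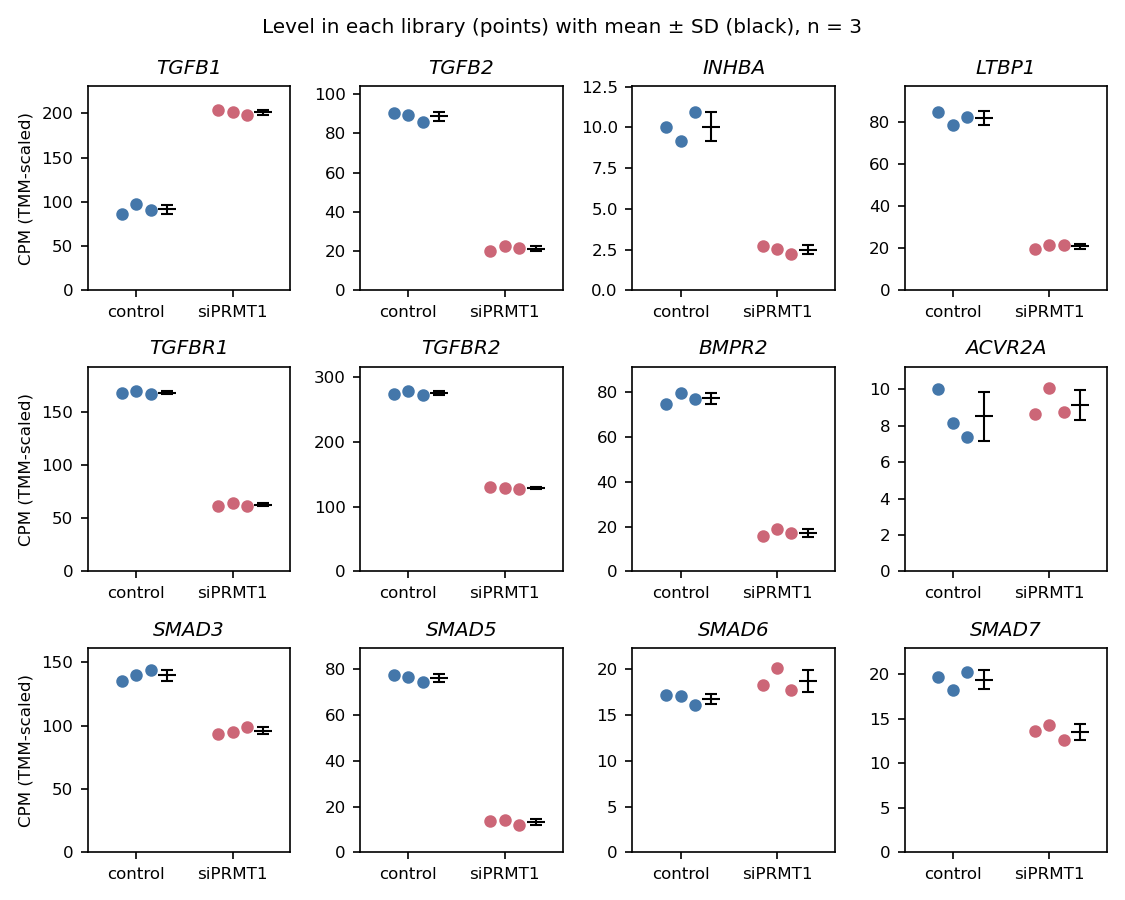
TMM-scaled CPM (y axis, from 0) of 12 members in each of the 3 control (blue) and 3 siPRMT1 (red) libraries, with mean ± SD in black. TGFB1 is higher and TGFB2, INHBA, LTBP1, TGFBR1, TGFBR2, BMPR2, SMAD3, SMAD5 and SMAD7 are lower in all 3 siPRMT1 libraries, ACVR2A overlaps, and SMAD6 differs by 1.12-fold.

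Among the 8 SMADs, 7 fell and SMAD6 rose slightly (45% of all tested genes fell and 44.3% rose). After correction 6 fell, SMAD2 rose and SMAD9 did not pass (40.1% of all genes fell and 40.4% rose). SMAD5, a BMP-regulated SMAD (ENSG00000113658; hg38, chromosome 5, 136132845 to 136188747, plus strand), stood at 77.5, 76.6 and 74.4 CPM in the controls and at 13.6, 14.1 and 11.8 CPM after knockdown. This was the lowest TMM-scaled log2 fold change among the tested members, 5.75-fold lower (log2 fold change -2.52, SE 0.0509, edgeR adjusted p = 3.55e-200; corrected -1.19). SMAD1, which acts with SMAD5, stood at 5.98, 7.20 and 5.98 CPM and then at 3.16, 3.26 and 2.36 CPM (log2 fold change -1.10, corrected -0.71). SMAD9, the third of this class, was scarce, at 1.598, 1.85 and 2.02 CPM and then 1.18, 0.761 and 0.591 CPM (-1.10; corrected -0.30, adjusted p = 0.282). SMAD5 thus supplied most of this class in both groups, 87.5% ± 1.02 per base of gene model in the controls and 72.6% ± 2.57 after knockdown. This share carries no correction for GC content or length. SMAD5 shares 610 exon bases with its antisense gene SMAD5-AS1.

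The common partner SMAD4 stood at 37.0, 37.5 and 35.2 CPM in the controls and at 11.04, 11.3 and 11.04 CPM after knockdown. It fell 3.28-fold (log2 fold change -1.72, SE 0.0625, edgeR adjusted p = 2.56e-103; corrected -0.56), and 967 of its exon bases are shared with another gene model on the same strand. SMAD2, a TGF-beta-regulated SMAD, stood at 62.5, 63.6 and 65.7 CPM and then at 31.5, 31.8 and 33.4 CPM. Its log2 fold change of -0.99 turned to 0.22 after correction; its canonical transcript is 34626 bases long, the longest of the members. SMAD3, its partner in TGF-beta and activin signalling, stood at 135, 139.9 and 144 CPM and then at 93.6, 94.8 and 98.9 CPM. It fell by 0.54 on the log2 scale (SE 0.0283) and by 0.13 after correction.

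The inhibitory SMADs went apart. SMAD6, which blocks BMP signalling, stood at 17.1, 17.0 and 16.1 CPM in the controls and at 18.2, 20.1 and 17.7 CPM after knockdown. The rise was 1.12-fold (log2 fold change 0.16, edgeR adjusted p = 0.0150); it was -0.15 with library size alone and -0.27 after correction, and did not pass with DESeq2 (0.16, adjusted p = 0.136), without control replicate 3 (0.14, adjusted p = 0.0688) or without siPRMT1 replicate 2 (0.11, adjusted p = 0.181). SMAD7, which blocks TGF-beta receptors and recruits SMURF ubiquitin ligases to them, stood at 19.7, 18.2 and 20.2 CPM and then at 13.6, 14.3 and 12.5 CPM. It fell in all 3 fits (log2 fold change -0.52; -0.84 with library size alone; corrected -0.94). The count ratio of SMAD7 to SMAD6 within a library, free of scaling, was 0.20, 0.094 and 0.33 on the log2 scale in the controls and -0.42, -0.49 and -0.50 after knockdown. The ratio differed by -0.68 with no overlap, and the corrected fold changes of these genes, whose GC contents are 57.0% and 58.8%, differed by a like amount (-0.67).

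Nuclear co-repressors that restrain SMAD-driven transcription showed 2 falls and 1 small rise (45% of all tested genes fell and 44.3% rose). SKI stood at 76.0, 69.8 and 73.8 CPM in the controls and at 30.2, 27.4 and 30.4 CPM after knockdown. It fell 2.51-fold (log2 fold change -1.32, SE 0.0425, edgeR adjusted p = 2.75e-121) although its transcript has a GC content of 61.4%, and the corrected value was larger in size (-1.58). SKIL, its paralogue, which TGF-beta induces as feedback, stood at 23.5, 23.6 and 21.6 CPM and then at 11.2, 10.2 and 11.3 CPM. Its fall of 1.08 on the log2 scale became a rise of 0.50 after correction, with a GC content of 33.6%, the lowest of the members. TGIF1, a homeobox co-repressor, rose by 0.12 (corrected 0.58) but was lower with library size alone (-0.20).

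Extracellular and membrane antagonists were mixed, 3 higher and 2 lower (44.3% and 45% of all tested genes). FSTL3, a follistatin relative that binds activins, stood at 40.4, 40.3 and 39.7 CPM in the controls and at 103, 98.7 and 98.5 CPM after knockdown. It had the highest TMM-scaled log2 fold change of the tested members (1.32, SE 0.0360, edgeR adjusted p = 3.92e-146; 2.49-fold; corrected 0.37). FST, follistatin itself, rose from 11.1 ± 0.596 to 12.9 ± 0.973 CPM (0.23, corrected 0.30) but was lower with library size alone (-0.088) and did not pass with DESeq2 (adjusted p = 0.0755). BAMBI, a kinase-less pseudoreceptor that dampens TGF-beta signalling, rose from 14.4 ± 0.667 to 23.1 ± 0.585 CPM (0.68, corrected 0.15). FSTL1, a secreted follistatin-like glycoprotein, fell from 172 ± 1.37 to 102 ± 1.00 CPM (-0.75) and was higher after correction (0.11). NOG, which encodes the BMP antagonist noggin, fell by 0.18, and by 1.14 after correction.

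Feedback and direct targets did not move as a block, with 4 lower and 3 higher (45% and 44.3% of all tested genes). ID1, an inhibitor of basic helix-loop-helix factors and a classical BMP target, stood at 112, 116 and 115 CPM in the controls and at 146, 149 and 147 CPM after knockdown. ID3, its relative, stood at 46.6, 47.4 and 48.0 CPM and then at 70.8, 71.6 and 66.9 CPM. Both rose with TMM scaling (log2 fold changes 0.37 and 0.56), and both were lower after correction (-0.80 and -0.54); their canonical transcripts are short, at 983 and 950 bases. ID1 did not pass with library size alone (0.051, adjusted p = 0.0638). ID2 stood at 4.56, 4.15 and 3.91 CPM and then at 2.30, 2.23 and 1.45 CPM. It fell in each of these fits (log2 fold change -1.06, SE 0.162; corrected -1.19). ID2 shares 145 exon bases with its antisense gene ID2-AS1.

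KLF10, a zinc-finger gene induced early by TGF-beta, stood at 36.0, 35.7 and 34.1 CPM in the controls and at 10.2, 10.8 and 11.6 CPM after knockdown. It fell 3.25-fold (log2 fold change -1.70, SE 0.0634, edgeR adjusted p = 4.26e-100; corrected -1.35). PMEPA1, a TGF-beta-induced membrane protein that sequesters SMAD2 and SMAD3, rose from 38.5 ± 1.00 to 56.6 ± 1.65 CPM (SD, n = 3 each; 0.56, corrected 0.60). The ubiquitin ligase genes SMURF1 and SMURF2, whose products mark SMADs and receptors for degradation, fell by 0.53 and 0.59 on the log2 scale. After correction SMURF1 was at -0.25 and SMURF2 at 0.38. SMURF1 shares 735 exon bases with TRRAP and SMURF2 180 with CEP95, both on the opposite strand.

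Ratios of 12 gene pairs were compared within libraries, where the scaling cancels. In 11 of them the control and siPRMT1 values did not overlap (exact permutation p = 0.1 each, the smallest that 3 against 3 allow, and 0.109 adjusted over the 12). SMURF1 to SMURF2 overlapped (exact permutation p = 0.4). Taken singly, 89.1% of all tested genes had no overlap between groups. No share over other gene pairs was worked out, so the count of 11 is not a result about these pairs. The widest shift was TGFB1 to TGFB2, from 0.041 ± 0.102 to 3.24 ± 0.0982 on the log2 scale, followed by LTBP3 to LTBP1, from -1.14 ± 0.108 to 1.65 ± 0.0976. The corrected fold changes of these pairs still differed in the same direction (by 1.45 and 1.84). For SMAD3 to SMAD2 the shift of 0.44, for TGFBR2 to TGFBR1 that of 0.33 and for INHBB to INHBA that of 1.06 had the opposite sign when corrected fold changes were compared (-0.35, -0.39 and -0.46). SMAD5 to SMAD1 (-1.41, corrected -0.49), BMPR2 to BMPR1A (-0.74, corrected -0.48) and ACVR2B to ACVR2A (-0.75, corrected -0.94) kept theirs, as did ID1 to ID2 (1.46, corrected 0.38). SKI to SKIL moved by -0.25, and by -2.08 on the corrected scale.

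**Figure D4:**
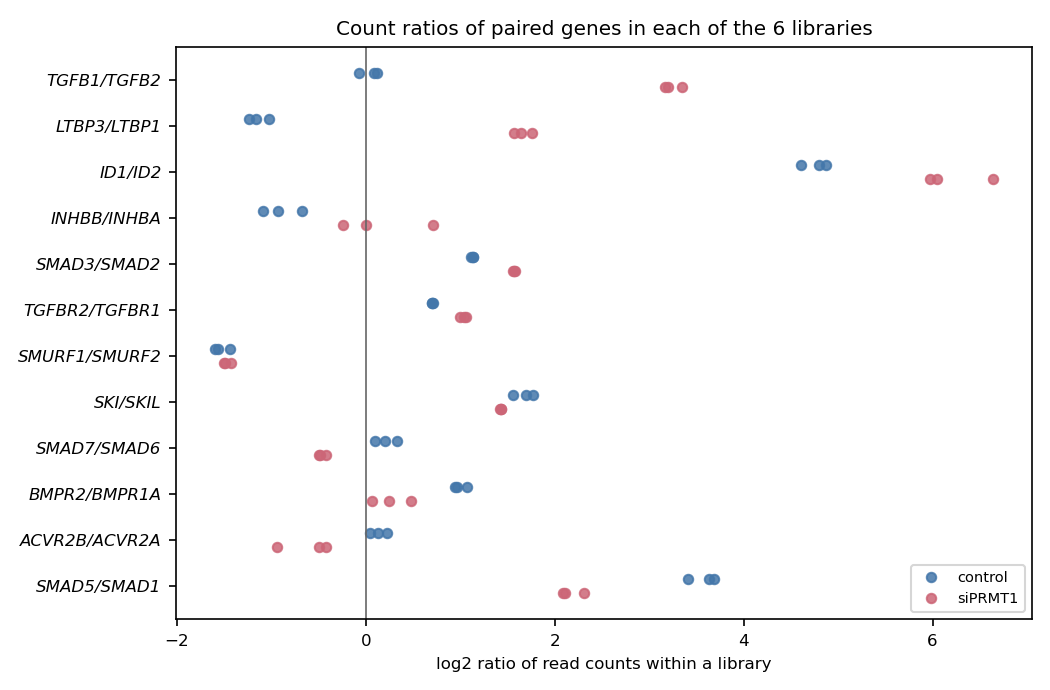
Log2 ratio of read counts of 2 genes within each library (x axis) for 12 pairs (y axis), control in blue and siPRMT1 in red, 3 libraries each. The groups are apart for every pair except SMURF1 to SMURF2, and furthest apart for TGFB1 to TGFB2.

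Per kilobase of gene model, the order of the most abundant members changed. In the controls BMP4 (69.1 CPM per kilobase) and ID1 (66.8) led, followed by TGFBR2 (38.8), ID3 (31.6), TGFB1 (28.0), SMURF2 (23.5) and TGFBR1 (20.03). In the siPRMT1 libraries BMP4 (106) and ID1 (86.1) still led, followed by TGFB1 (61.6), ID3 (46.7), FSTL3 (33.0), GDF15 (21.1) and TGFBR2 (18.1). TGFBR1 stood at 7.46 CPM per kilobase there. None of these levels carries a correction for GC content. Corrected log2 fold changes were -0.0064 for BMP4, -0.80 for ID1, 0.30 for TGFB1 and -0.54 for ID3. They were 0.37 for FSTL3, -0.56 for GDF15 and -0.65 for TGFBR2.

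Other genes of the pathway, 81 ligands, co-receptors, latency activators, antagonists and intracellular regulators, were looked at as a list, of which 54 were tested. Of these 31 fell, 21 rose and 2 (GDF5 and TGIF2) did not pass, with a median log2 fold change of -0.48; after correction 26 fell and 15 rose, with a median of -0.095. Over all tested genes 45% fell and 44.3% rose, and 40.1% and 40.4% after correction. Activators of latent TGF-beta were among the lowest: THBS1, whose product thrombospondin-1 releases active TGF-beta, fell from 569 ± 5.19 to 82.4 ± 1.79 CPM (SD, n = 3 each; log2 fold change -2.79, corrected -1.95), and the integrin subunit gene ITGAV fell from 151 ± 3.64 to 29.7 ± 2.47 CPM (-2.34, corrected -1.10). TWSG1, a secreted modulator of BMPs, fell from 101 ± 0.684 to 17.7 ± 1.31 CPM (-2.51, corrected -1.48). XIAP, an inhibitor of apoptosis that also binds the kinase adaptor TAB1, fell from 70.8 ± 1.70 to 9.92 ± 1.24 CPM (-2.82, corrected -1.54). The highest were FOXH1, a DNA-binding partner of SMAD2 and SMAD3, from 4.13 ± 0.581 to 12.9 ± 0.756 CPM (1.64, corrected 0.53), the BMP antagonist gene NBL1 (1.48, corrected 0.38), STUB1 (1.30, corrected -0.05, which did not pass), a ubiquitin ligase gene, and the ligand gene BMP6, from 13.9 ± 1.53 to 34.0 ± 0.413 CPM (1.29, corrected 1.05).

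Genes known as targets of SMAD signalling were called in both directions, at shares near those of all genes with TMM scaling (44.3% rose and 45% fell). Of 31 listed, 27 were tested, 14 rose, 12 fell and HEY1 did not pass, with a median of 0.11; after correction 9 rose and 14 fell (40.4% and 40.1% of all genes), with a median of -0.19. The lowest were RUNX2, an osteoblast transcription factor gene, from 61.5 ± 3.22 to 16.5 ± 0.941 CPM (SD, n = 3 each; -1.89, corrected -1.11), FN1 (-1.61, corrected -1.06), BHLHE40 (-1.47, corrected -1.45) and the EMT factor gene SNAI2, from 23.1 ± 1.32 to 8.85 ± 0.0943 CPM (-1.39, corrected -1.12). The highest were ANGPTL4 (1.85, corrected 0.71), from 2.7004 ± 0.445 to 9.75 ± 0.437 CPM, COL1A1 (1.70, corrected 1.43), SPHK1 (0.98, corrected -0.23) and TAGLN (0.98, corrected 0.72).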

How the data were processed

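The authors deposited 1 table of read counts per gene, whole numbers that are not normalized, with a gene model length column and hg38 coordinates, per the file headers. Per the submitters' processing notes, the tools were edgeR 3.40.2, Subread 1.5.1, featureCounts, STAR 2.7.6a and fastp 0.23.2, with hg38 as the build and no role given for any of them. Per the labels' protocols, the mRNA library kit keeps strand and reads were paired, 150 bases each. No source used here gives the annotation release, the strand setting or the handling of duplicates.

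Total counts per sample ran from 16968563 to 20545995. In R 4.3.3 with edgeR 4.0.16, genes were kept by filterByExpr (13710), scaled by TMM and compared by glmQLFit and glmQLFTest over all 6 samples, at a Benjamini-Hochberg adjusted p of 0.05 over the 13710 genes. A standard error is the size of the log2 fold change divided by the square root of F. The fit was also run on simulated data. Neither the setting nor the outcome of that run is given here, so no conclusion about the fit to these libraries is drawn from it. The chi-square per degree of freedom between replicates of a group was 1.05 to 1.38, which does not tell separate cultures from technical repeats; the 6 are counted as samples because the labels call them biological replicates. The correction removed per-sample splines with 5 degrees of freedom on GC content and log length of the GENCODE 44 canonical transcript (known for 13694 genes), centred on the median gene. Levels per kilobase use the deposited gene model length. Ratios within a library used a pseudocount of 0.5, an exact two-sided permutation test and scipy 1.17.1. Exon overlaps are from GENCODE 44, whose gene models may differ from those counted.

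Members and gene lists were chosen with earlier results of these data known. Values in every sample are given for members changed at least 2-fold and for SMADs, receptors and ID genes; of the 2 further lists, the 4 highest and 4 lowest called genes are named, if their mean level reached 5 CPM. Alternatives were 3 other scalings, DESeq2 1.42.0, limma-voom (limma 3.58.1), robust estimation, no filter, the correction, a block for the replicate number, a stricter filter (3 samples at 1 CPM) and leaving out each sample. Some items are not reported here.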

Additional observations from a re-analysis of the deposited data

How the results depend on the processing

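The direction and call of all 45 tested members were the same with RLE scaling, limma-voom, robust estimation, no filter, the stricter filter and the replicate number as a block. Same-numbered samples did not deviate together (correlations of -0.0104, 0.0366 and 0.00151), so the numbers are not taken to pair samples; with the replicate block 29 members fell and 15 rose, as without it. With library size alone 4 members had the other sign: ACVR2A (-0.21), SMAD6 (-0.15), TGIF1 (-0.20) and FST (-0.088), and ID1 no longer passed (0.051). With the GC and length correction 11 had the other sign: BMP4 (-0.0064), GDF15 (-0.56), BMPR1B (0.067), ACVR2B (0.35), SMAD2 (0.22), SMAD6 (-0.27), SKIL (0.50), FSTL1 (0.11), ID1 (-0.80), ID3 (-0.54) and SMURF2 (0.38). The number of members at least 2-fold higher was 0 with library size alone and 1 after the correction instead of 3, the number at least 2-fold lower was 10 after the correction instead of 18, and 9 instead of 14 SMAD target genes rose after it. The cause was not tested. SMAD6 and TGIF1 did not pass with upper-quartile scaling (0.12 and 0.071), and SMAD6 and FST did not with DESeq2 (0.16 and 0.22). Leaving out each sample in turn gave 29 lower members each time and between 14 and 16 higher ones. Depth limits the scarce members most: SMAD9 reached 2.02 CPM at most and ID2 4.56 CPM.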
